A study of Mus musculus with 9 samples.

Results

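The interferon regulatory factors (IRFs) of mouse bone marrow-derived dendritic cells (BMDCs) were followed through exosome treatment. The genes were taken by symbol from the table of estimated reads per gene, and all 8 of those sought, Irf1, Irf2, Irf3, Irf4, Irf5, Irf7, Irf8 and Irf9, were found among its 57238 entries. BMDCs were grown from bone marrow of wildtype C57BL/6 mice in medium with GM-CSF (20 ng/ml), over 6 days according to the labels, which give no age of the mice. Control BMDCs (CTR) were untreated. NE-treated BMDCs received exosomes of NIH-3T3 cells, a non-cancerous mouse fibroblast line, for 24 h. TDE-treated BMDCs received tumor cell-derived exosomes for 24 h, and the labels do not name the tumor line. Each group had 3 libraries. Nothing in the sources used here says whether these came from separate mice or cultures, so p-values measure the spread between these samples only. All values are from bulk RNA, in which fewer cells of a type and less RNA per cell cannot be told apart.

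IRFs share an amino-terminal DNA-binding domain that recognizes GAAA repeats in the interferon-stimulated response element (ISRE). Irf3, Irf5 and Irf7 are activated downstream of innate sensors such as Toll-like receptors, Irf9 is part of the complex that answers type I interferon, and Irf1 and Irf2 are antagonistic regulators of interferon-responsive genes. Irf4 and Irf8 bind DNA largely with partners such as PU.1 and BATF proteins and are known for directing the development of dendritic cell subsets. In the deposited annotation the Pfam IRF domain was listed for all 8 genes, and the carboxy-terminal IRF-3 domain for 6 of them, the exceptions being Irf1 and Irf2.

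Sequencing depth ranged from 17469782 to 21092943 estimated reads per library. The detection floor was taken as 3 reads, or 0.142 to 0.172 CPM (reads scaled to a common library size) before TMM normalization. Levels in CPM are given after it, with a TMM factor of 0.751 in CTR replicate 1 and 0.999 to 1.07 in the other libraries. On that scale the floor of CTR replicate 1 lies above this range. CTR replicate 1 stood apart from the rest. Its log2 CPM profile correlated with those of the other libraries at 0.827 to 0.900 across genes, whereas the lowest correlation among the other 8 libraries was 0.942. The dendritic cell markers Itgax, Flt3 and Zbtb46 were present in every library, at 107 to 178, 11.6 to 16.0 and 13.7 to 19.9 CPM. Markers of other cells were present as well and moved with treatment. The summed level of 10 neutrophil markers was 7126 to 28837 CPM in CTR, highest in CTR replicate 1, 7507 to 10821 in NE and 3080 to 3377 in TDE. The sum of 8 dendritic cell markers was 4052 to 12644 CPM in CTR, 3852 to 4855 in NE and 2056 to 2178 in TDE, and 5 of the 8 fell in TDE-treated against CTR BMDCs. The sum of 8 macrophage markers was 3394 to 3789, 3187 to 3581 and 4709 to 5048 CPM. In it Adgre1 alone rose, at 206 to 480 CPM in CTR, 405 to 487 in NE and 2114 to 2312 in TDE, and 2 others fell. The higher sum in TDE was due to Adgre1. Eosinophil markers summed to 624 to 1671 CPM in CTR, 638 to 724 in NE and 115 to 144 in TDE, and mast cell and basophil markers to 135 to 411, 148 to 212 and 33.4 to 38.2. All 7 eosinophil and all 5 mast cell and basophil markers fell in TDE-treated against CTR BMDCs, as did 8 of the neutrophil markers. Plasmacytoid dendritic cell markers, of which 2 rose and 2 fell, summed to 73.3 to 84.2, 72.5 to 82.8 and 100 to 109 CPM. B cell markers summed to 33.6 to 71.8, 30.2 to 36.2 and 31.4 to 31.5 CPM. Fibroblast markers summed to 4.88 to 5.39, 4.23 to 5.97 and 7.59 to 7.99 CPM. Of the 5 tested, Dcn alone was called, rising from 0.127 to 0.587 CPM in CTR to 3.08 to 3.49 in TDE. Among T and NK cell markers, 4 of 5 stayed below 1 CPM in every library. The part of these differences in the values of the IRF genes was not tested.

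Irf8 and Irf5 were the most abundant IRFs. In every TDE library Irf8 was higher and Irf5 lower than in any CTR or NE library. Only the fall of Irf5 passed the test. The higher level of Irf8 did not (edgeR's quasi-likelihood test, adjusted p = 0.116 against CTR and 0.135 against NE). Without a test, all TDE libraries lay above those of CTR for 22.2% of all genes tested and below for 21.8%. Against NE the shares were 26.8% and 27.7%. The promoters of Irf8, Irf5 and Irf4 are shown because the TDE libraries of these genes lay apart from all CTR and NE libraries. Irf4 did not pass the test either (edgeR adjusted p = 0.116 against CTR and 0.215 against NE). The windows run from 250 bases before the start of the gene to 50 after it, on the plus strand of build GRCm38.p6, from RefSeq. All 8 genes had a window, 11 windows in all. They were searched on both strands for the ISRE core TTTCNNTTTC, the gamma-activated site (GAS) TTCNNNGAA bound by STAT proteins, and the NF-kB consensus. Capitals mark the matches, 2 GAS letters in Irf8 and none in the others.
Irf8, chr8:120736108-120736407: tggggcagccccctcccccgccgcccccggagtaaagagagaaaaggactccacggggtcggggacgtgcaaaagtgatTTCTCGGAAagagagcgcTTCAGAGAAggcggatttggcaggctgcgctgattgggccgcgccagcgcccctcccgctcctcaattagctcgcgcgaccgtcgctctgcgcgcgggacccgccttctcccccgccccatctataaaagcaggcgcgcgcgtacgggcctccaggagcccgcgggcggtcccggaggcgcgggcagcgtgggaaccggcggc
Irf5, chr6:29526375-29526674: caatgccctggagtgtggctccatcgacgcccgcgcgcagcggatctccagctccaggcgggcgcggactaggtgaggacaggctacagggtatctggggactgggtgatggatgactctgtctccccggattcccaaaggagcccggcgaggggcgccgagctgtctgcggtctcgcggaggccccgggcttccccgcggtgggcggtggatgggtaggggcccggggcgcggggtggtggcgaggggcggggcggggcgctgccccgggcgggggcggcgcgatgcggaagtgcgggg
Irf4, chr13:30748983-30749282: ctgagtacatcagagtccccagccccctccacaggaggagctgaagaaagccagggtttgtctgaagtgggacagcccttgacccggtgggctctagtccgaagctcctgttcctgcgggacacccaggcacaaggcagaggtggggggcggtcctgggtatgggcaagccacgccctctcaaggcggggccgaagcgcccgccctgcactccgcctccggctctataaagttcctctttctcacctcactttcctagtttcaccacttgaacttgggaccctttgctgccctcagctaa

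The GAS matches of Irf8 were TTCTCGGAA, 171 bases before the start, and TTCAGAGAA, 153 bases before it. GAS letters were found in 8.30% of 32851 promoter windows, the ISRE core in 3.44% and the NF-kB consensus in 4.51%. Irf1 held the GAS TTCCCCGAA 90 bases before its start and the NF-kB letters GGGGAATCCC 13 bases before it. Irf2 held all 3 kinds of letters, with GAAAATGAAA, the ISRE core on the opposite strand, 241 bases before the start. No window of Irf3, Irf4, Irf5, Irf7 or Irf9 held any of them, which says only that these letters are not in the windows.

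Per length, the family was led by Irf8 and Irf5 in untreated cells. In CTR, the level of Irf8 was 98.9 ± 3.92 and that of Irf5 95.6 ± 4.6 CPM per kb of gene length (SD, n = 3), and their ranges over libraries overlapped. Irf1 followed at 43.3 ± 3.87, Irf3 at 31.6 ± 18.8, Irf2 at 29.3 ± 12.2, Irf7 at 18.6 ± 7.20 and Irf9 at 16.4 ± 2.46 CPM per kb. Each neighbour in this stretch overlapped the next in CTR, while Irf1 lay below Irf5 and Irf4, at 5.78 ± 1.73 CPM per kb, below Irf9. In NE, Irf8 (98.3 ± 4.19) and Irf5 (96.2 ± 2.12 CPM per kb) again overlapped. In TDE they did not, with Irf8 at 121 ± 5.67 and Irf5 at 71.7 ± 3.59 CPM per kb. The other genes followed in TDE in the order Irf1, Irf2, Irf3, Irf7, Irf9 and Irf4, in which Irf7 and Irf9 alone overlapped.

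**Figure D1:**
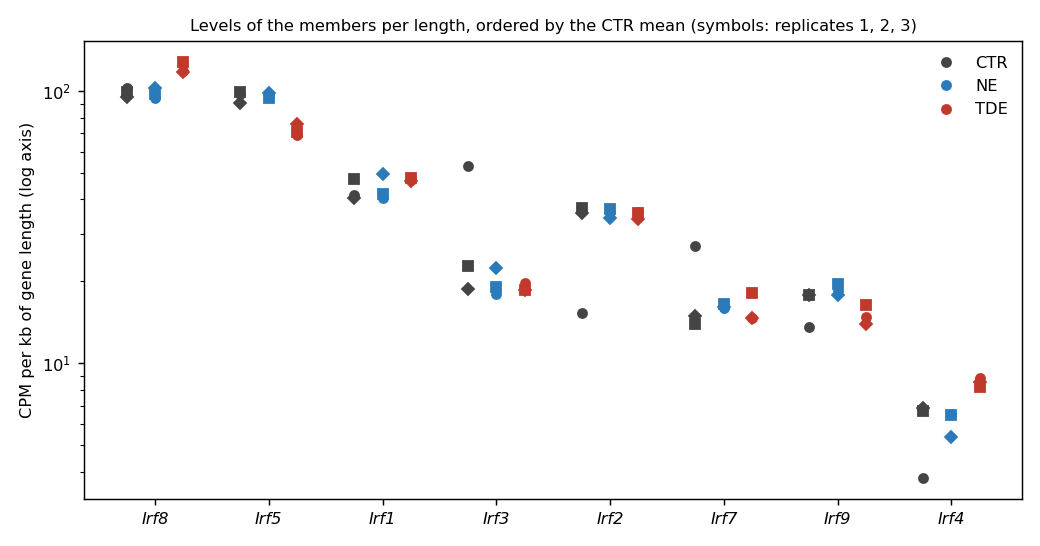
Level of each IRF in CPM per kb of gene length, on a log axis, with 1 symbol per library (circle, square and diamond for replicates 1, 2 and 3) and genes ordered by the CTR mean. Irf8 and Irf5 lie together at the top in CTR and NE and apart in TDE (121 against 71.7 CPM per kb), and CTR replicate 1 lies away from its group for Irf3, Irf2, Irf7 and Irf4.

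The summed level of the 8 genes was 340 ± 17.8 CPM per kb in CTR, 335 ± 10.6 in NE and 334 ± 8.24 in TDE. Irf8 and Irf5 together made up 57.3%, 58.1% and 57.8% of it. Within that sum the share of Irf5 was 28.2% ± 0.620 in CTR, 28.7% ± 0.652 in NE and 21.5% ± 1.30 in TDE, and that of Irf8 29.1% ± 0.474, 29.3% ± 0.347 and 36.3% ± 0.810. The ratio of Irf8 to Irf5 per length, taken within each library and chosen after their levels were seen, was 1.05, 1.0 and 1.05 in CTR and 0.983, 1.04 and 1.05 in NE. In the TDE libraries it was 1.72, 1.81 and 1.55, each above the other 6 libraries. Being chosen for this pattern, the ratio is given with no test.

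CTR replicate 1 lay outside the range of all 8 other libraries in 5 of the 8 genes. The share of all genes in which it did so was not computed. The count is therefore not read as particular to the IRFs. Its CPM of Irf3 was 2.55 times and that of Irf7 1.86 times the mean of CTR replicates 2 and 3, above all 8 other libraries. Its CPM of Irf2 was 0.421 times, of Irf4 0.559 times and of Irf9 0.762 times that mean, below all 8 others. Irf1, Irf5 and Irf8 lay within the range of the other libraries in this library, at 0.942, 1.03 and 1.06 times the mean. The fold changes below come from all 9 libraries, and values without CTR replicate 1 are given beside them.

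Of the 8 genes, Irf5 alone passed the test in TDE-treated against CTR BMDCs and in TDE-treated against NE-treated BMDCs, and it fell in each. Over all 15028 genes tested, 16.9% were called in the first comparison and 14.0% in the second (edgeR's quasi-likelihood test, Benjamini-Hochberg adjusted p under 0.05). At an unadjusted p under 0.05, 3 of the 8 and 34.8% of all genes passed in the first, and 2 of the 8 and 26.4% in the second. The comparisons share the TDE libraries. The median log2 fold change of the 8 genes was -8.27e-05 against CTR and -0.026 against NE, beside -0.055 and -0.024 over all genes tested. When CTR replicate 1 was left out, the test called 3 of the 8 against CTR, where 34.4% of all genes were called, and 4 against NE, where 40.7% were called. The added calls were those of Irf8 and Irf4, and against NE also of Irf9.

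**Figure D2:**
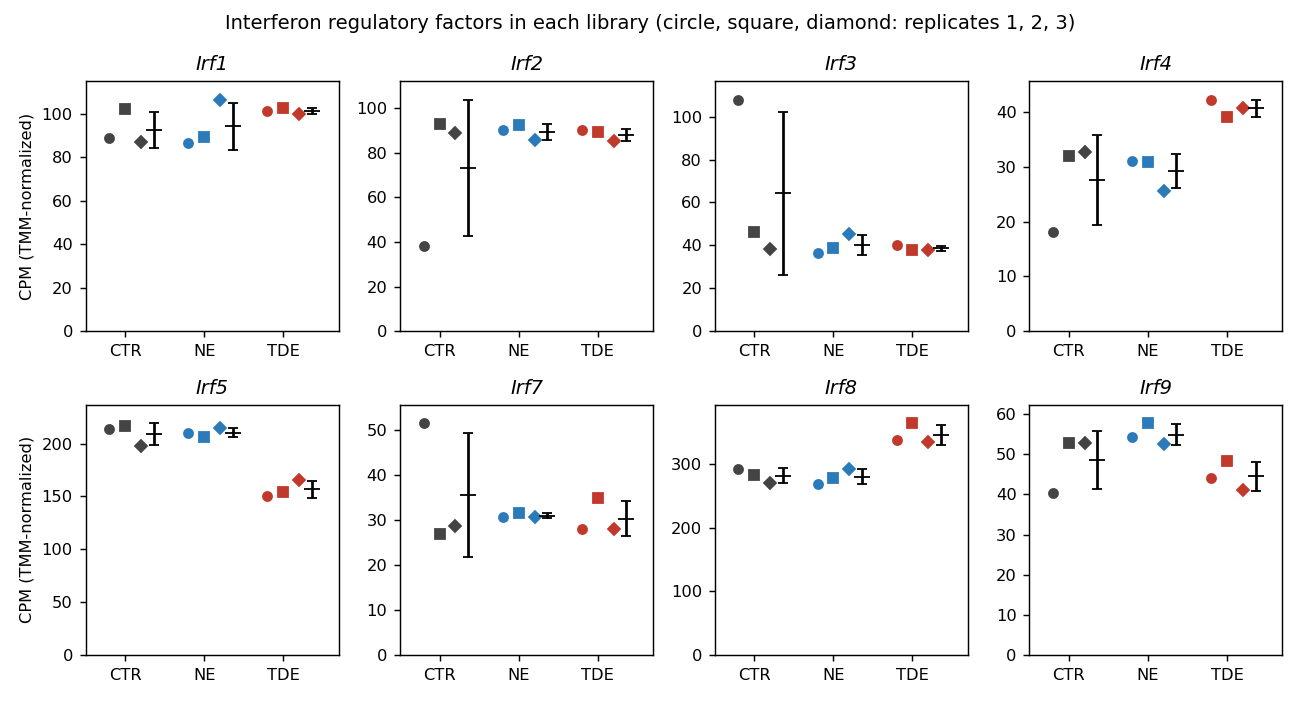
TMM-normalized CPM of each IRF in the 9 libraries, grouped as CTR, NE and TDE, with replicates 1, 2 and 3 as circle, square and diamond and black bars for the mean and SD of each group. All TDE libraries lie below the other 6 for Irf5 (151 to 166 CPM) and above them for Irf8 (335 to 364) and Irf4 (39.1 to 42.2), and the wide CTR bars of Irf2, Irf3 and Irf7 come with CTR replicate 1.

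Irf5 drives proinflammatory cytokine genes such as those of IL-12 and IL-6 downstream of Toll-like receptors and MyD88. It lies at chr6:29526625-29541871 on the plus strand (GRCm38, GENCODE vM21), and its promoter above held none of the letters searched. Its level was 214, 217 and 198 CPM in the CTR libraries, 211, 206 and 215 CPM in the NE libraries and 151, 154 and 166 CPM in the TDE libraries. All 3 TDE libraries were below all 6 others. Irf5 fell by 0.42 on the log2 scale in TDE-treated against CTR BMDCs (SE 0.113, edgeR adjusted p = 0.0396), and by 0.42 against NE-treated BMDCs (SE 0.113, edgeR adjusted p = 0.0404). The direction was the same in every setting tried, with log2 fold changes of -0.45 to -0.35 against CTR and -0.48 to -0.39 against NE. With all libraries kept, the edgeR call was lost against CTR with library totals alone (adjusted p = 0.195) and with no filter on low counts (0.222). It was also lost against CTR with only the 6 libraries of the comparison (0.113). Against NE it was lost with library totals alone (adjusted p = 0.103) and with no filter (0.245). A fit to all libraries with replicate number as a block lost the call in both comparisons. The call also depended on single libraries. Against CTR, the adjusted p was 0.00303 without CTR replicate 1 and 0.0406 without CTR replicate 3. The call against CTR was lost without CTR replicate 2 (adjusted p = 0.0969), without NE replicate 1, 2 or 3 (0.0836, 0.0822 and 0.0576) and without TDE replicate 1, 2 or 3 (0.175, 0.154 and 0.119). Against NE, the adjusted p was 0.00104 without CTR replicate 1 and 0.0480 without CTR replicate 3. The call against NE was lost without CTR replicate 2 (adjusted p = 0.0695), without NE replicate 1, 2 or 3 (0.134, 0.121 and 0.117) and without TDE replicate 1, 2 or 3 (0.190, 0.167 and 0.119). Exons of Tnpo3, a nuclear import receptor gene on the opposite strand, cover 411 of the 2905 exon bases of Irf5. Tnpo3 was at 41.3 to 73.3 CPM in CTR, 63.0 to 72.7 in NE and 71.7 to 76.5 in TDE (log2 fold change of TDE against CTR 0.32, edgeR adjusted p = 0.286), and whether counting used strand is not given in the sources used here.

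Irf8, required for the cDC1 subset of dendritic cells and for monocyte development, lies at chr8:120736358-120756694. Its level was 293, 282 and 270 CPM in CTR, 269, 278 and 293 CPM in NE and 337, 364 and 335 CPM in TDE. All 3 TDE libraries were above all 6 others, by 22.5% of the fitted mean of CTR and 23.3% of that of NE. The log2 fold change was 0.29 against CTR (SE 0.116, edgeR adjusted p = 0.116) and 0.30 against NE (SE 0.116, edgeR adjusted p = 0.135), which did not pass the threshold. It rose in the fit without CTR replicate 1, with a log2 fold change of 0.31 against CTR (adjusted p = 0.0112) and 0.29 against NE (adjusted p = 0.00686). DESeq2, applied to all 9 libraries, also called it, with adjusted p = 0.00749 against CTR and 0.00579 against NE, where it called 20.6% and 15.1% of all genes. The 2 GAS matches printed in capitals above lie in the promoter of this gene.

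Irf4, tied to the cDC2 subset of dendritic cells and to alternatively activated macrophages, lies at chr13:30749226-30766976. Its level was 18.1, 32.0 and 32.6 CPM in CTR, 31.1, 30.9 and 25.6 CPM in NE and 42.2, 39.1 and 40.6 CPM in TDE. The TDE libraries were again above all others, and the lowest value was that of CTR replicate 1. The log2 fold change was 0.56 against CTR (SE 0.222, edgeR adjusted p = 0.116) and 0.48 against NE (SE 0.221, edgeR adjusted p = 0.215). In the fit without CTR replicate 1 the value against CTR moved to 0.32 (adjusted p = 0.0343) and that against NE to 0.47 (adjusted p = 0.00281), and Irf4 rose in both. Against CTR, 2 of the 8 genes (Irf4 and Irf8) had all TDE libraries above, as did 22.2% of all genes tested, and 1 (Irf5) had all of them below, as did 21.8%. Against NE, 2 genes lay above (26.8% of all genes) and 2 below (Irf5 and Irf9, 27.7% of all genes).

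**Figure D3:**
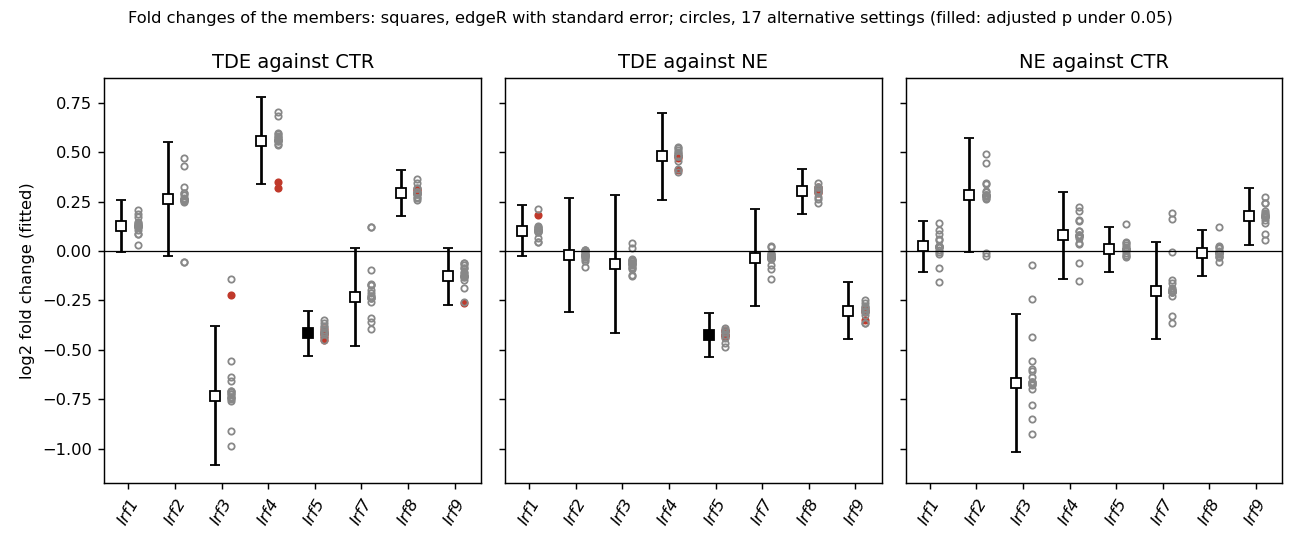
Fitted log2 fold change of each IRF in the 3 comparisons; squares with bars give the edgeR estimate and its standard error, and circles the 17 alternative settings, with filled symbols for an adjusted p under 0.05. Irf5 stays between -0.48 and -0.35 in every setting of both TDE comparisons, while Irf3 in TDE against CTR spreads from -0.99 to -0.14.

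The balance of Irf4 and Irf8 was compared within libraries, so that no scaling between libraries enters. The ratio of Irf4 to Irf8 per length was 0.0369, 0.0678 and 0.0722 in CTR, 0.0690, 0.0663 and 0.0522 in NE, and 0.0748, 0.0642 and 0.0726 in TDE. The groups overlapped. The mean log2 ratio in TDE was 0.32 above that in CTR (two-sided exact permutation test, p = 0.5) and 0.18 above that in NE (exact permutation test, p = 0.3), where 0.1 is the smallest p that 3 libraries against 3 allow. Leaving out CTR replicate 1, the difference from CTR was 0.0099, and without NE replicate 3 the difference from NE was 0.058.

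**Figure D4:**
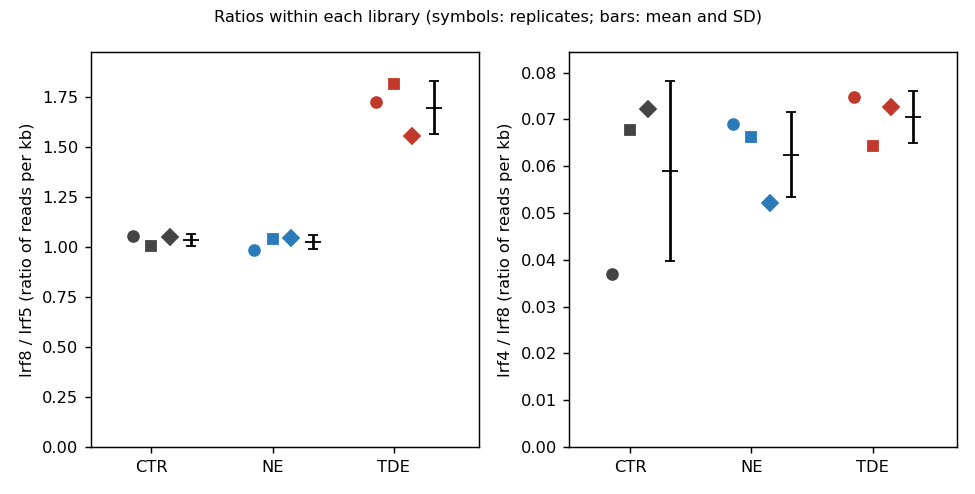
Ratio of Irf8 to Irf5 (left) and of Irf4 to Irf8 (right) in each library, in reads per kb, with symbols for replicates 1, 2 and 3 and bars for the mean and SD of CTR, NE and TDE. The Irf8 to Irf5 ratio is 0.983 to 1.05 in CTR and NE and 1.55 to 1.81 in TDE, and the Irf4 to Irf8 ratios of the groups overlap.

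Irf9, the DNA-binding subunit of the type I interferon response complex, lies at chr14:55603571-55610030. It was at 40.2, 52.8 and 52.8 CPM in CTR, 54.4, 57.7 and 52.7 CPM in NE and 44.0, 48.4 and 41.2 CPM in TDE. The TDE libraries lay below all NE libraries and overlapped CTR through CTR replicate 1. The log2 fold change was -0.30 against NE (SE 0.144, edgeR adjusted p = 0.228) and -0.13 against CTR (SE 0.144, edgeR adjusted p = 0.541). Without CTR replicate 1 it fell by 0.31 against NE (adjusted p = 0.0130), and the value against CTR was -0.26 (adjusted p = 0.0515).

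Irf1, induced by interferon gamma, was at 88.9, 102 and 86.8 CPM in CTR, 86.5, 89.4 and 106 CPM in NE and 101, 103 and 99.6 CPM in TDE. The groups overlapped, and the log2 fold change was 0.13 against CTR (edgeR adjusted p = 0.50) and 0.10 against NE (edgeR adjusted p = 0.720), or 0.089 and 0.095 without CTR replicate 1. Irf2, its antagonist at shared elements, was at 38.2, 92.7 and 88.9 CPM in CTR, 90.2, 92.1 and 85.4 CPM in NE and 90.0, 89.1 and 85 CPM in TDE. The log2 fold change was 0.26 against CTR (edgeR adjusted p = 0.532) and -0.055 without CTR replicate 1, which held the lowest value, and that against NE was -0.020 (edgeR adjusted p = 0.983) and -0.028 without that library. Neither gene passed the test in any comparison. Irf1 lies at chr11:53770014-53778374 and Irf2 at chr8:46739732-46847458.

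Irf3 and Irf7, which turn on type I interferon genes once phosphorylated, lie at chr7:44997648-45002848 and chr7:141262706-141266481, the latter on the minus strand. Irf3 was at 108, 46.4 and 38.2 CPM in CTR, 36.6, 38.9 and 45.5 CPM in NE and 40.1, 37.8 and 37.9 CPM in TDE. Its log2 fold change of -0.73 against CTR (SE 0.351, edgeR adjusted p = 0.174) became -0.14 without CTR replicate 1 (adjusted p = 0.378), and that against NE was -0.063 (edgeR adjusted p = 0.955) and -0.072 without that library. Irf7 was at 51.6, 26.8 and 28.7 CPM in CTR, 30.7, 31.6 and 30.8 CPM in NE and 28.0, 34.9 and 28.1 CPM in TDE. Its log2 fold change of -0.23 against CTR (edgeR adjusted p = 0.515) turned to 0.12 without CTR replicate 1, and that against NE was -0.033 (edgeR adjusted p = 0.967) and -0.041 without that library. For both genes the groups overlapped, and CTR replicate 1 held the highest value of all 9 libraries. Exons of neighbouring genes overlap those of Irf1 (Gm17334, 135 bases), Irf3 (Bcl2l12, 88 bases) and Irf7 (Phrf1, 45 bases) on the opposite strand and Irf9 (Rnf31, 123 bases) on the same strand, so reads there may belong to either gene.

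NE-treated and CTR BMDCs were compared to ask what exosomes of normal cells did. None of the 8 genes was called, 0% of all genes were called by edgeR, and the groups overlapped for each of the 8, while all NE libraries lay above CTR for 4.05% of all genes and below for 3.67%. At an unadjusted p under 0.05, 0 of the 8 and 487 of all 15028 genes (3.24%) passed, and over all genes DESeq2 called 3 (0.0104%), limma voom 18, and edgeR without CTR replicate 1 3 (0.0196%). The log2 fold changes ran from -0.67 for Irf3 (SE 0.350, edgeR adjusted p = 0.659) to 0.28 for Irf2 (SE 0.291, edgeR adjusted p = 0.661), and those of Irf5 and Irf8 were 0.0089 (SE 0.113) and -0.0088 (SE 0.116). Without CTR replicate 1, the values of Irf3 and Irf2 were -0.072 and -0.027.

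The genes around the family were described by lists of their sensors, partners and reported targets. The lists were chosen with earlier results of these data known. Shares of all genes are therefore printed for scale, and no excess can be read from them, here or in the lists below. Of 116 genes, 106 were tested, and 21 rose and 11 fell in TDE-treated against CTR BMDCs, beside 7.57% and 9.34% of all genes tested. Leaving out CTR replicate 1 gave 33 and 19, beside 16.4% and 18.0% of all genes, and without TDE replicate 1, 2 or 3 they were 13 and 7, 13 and 4, and 13 and 5. For fits without a library other than CTR replicate 1, here and in the lists below, no share of all genes is given. Whether those counts moved with the calls over all genes was not tested. Against NE, 18 rose and 10 fell, beside 6.73% and 7.22% of all genes, and without CTR replicate 1, 34 and 31, beside 19.2% and 21.5%. In NE-treated against CTR BMDCs edgeR called 0 of the 106.

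**Figure D5:**
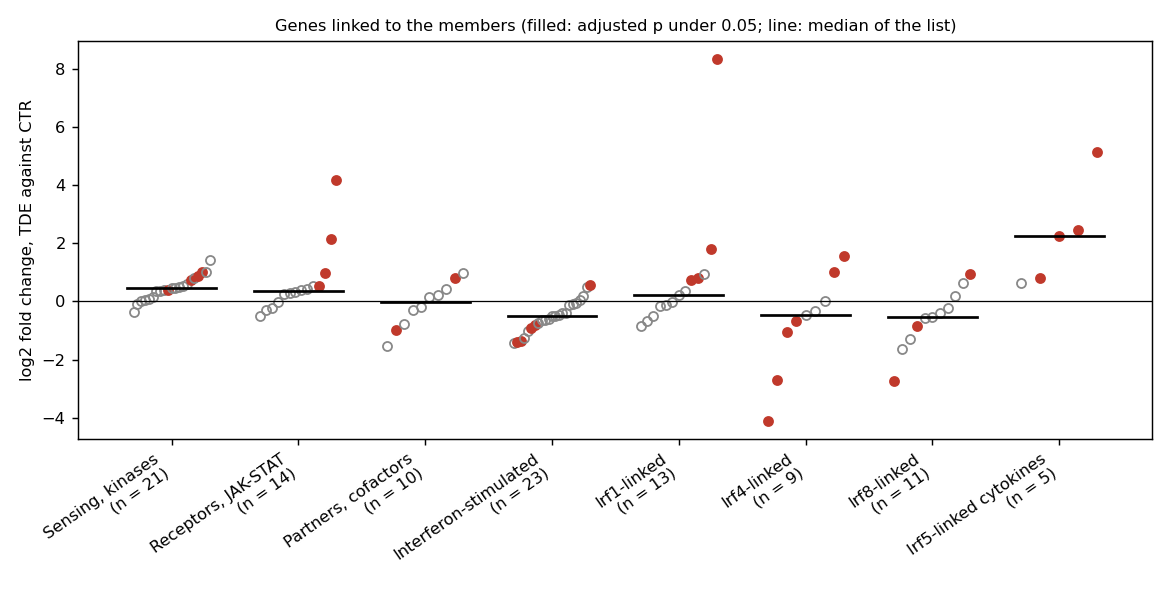
Fitted log2 fold change of TDE against CTR for each tested gene of 8 lists linked to the IRFs, with filled points for an edgeR adjusted p under 0.05 and a black line for the median of each list. The Irf5-linked cytokine genes have the highest median (2.26), interferon-stimulated genes lie mostly below 0 (median -0.52), and Nos2 is the highest point (8.32).

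Upstream of Irf3, Irf5 and Irf7, 4 of 21 sensors, adaptors and kinases rose in TDE-treated against CTR BMDCs and none fell, with a list median of 0.45. Ticam1, the TRIF adaptor of Tlr3 and Tlr4, was at 20.0 to 20.7 CPM in CTR, 18.6 to 21.5 in NE and 38.7 to 42.8 in TDE (log2 fold change against CTR 1.0, edgeR adjusted p = 0.00115). Tlr9, the endosomal receptor of CpG DNA, went from 25.1 to 40.2 CPM in CTR to 58.2 to 65.4 in TDE (log2 fold change 0.87, edgeR adjusted p = 0.0196). The others were Mavs, the mitochondrial adaptor of RNA sensors (0.72), and the kinase Irak2 (0.39). Against NE, Ticam1 was the gene of this list that rose. With CTR replicate 1 left out, 9 rose and 1 fell against CTR, and 9 rose and 2 fell against NE. Leaving out CTR replicate 3 gave 6 that rose against CTR, and leaving out TDE replicate 1, 2 or 3 gave 1. Against NE, 2 rose without CTR replicate 2 or 3.

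The interferon genes themselves were at or near 0. Over 8 genes for interferon beta, alpha, gamma and lambda, 1 read was counted in all CTR libraries together, for Ifnb1. The count was 0 in NE and TDE, which allows up to 0.154 to 0.172 CPM before TMM normalization. Of 14 genes of interferon receptors and JAK-STAT signalling, 4 rose and none fell in either TDE comparison. When CTR replicate 1 was left out, 6 rose and 2 fell against CTR and 7 rose and 3 fell against NE. The 4 genes included the receptor subunits Ifnar2 (log2 fold change against CTR 0.97, edgeR adjusted p = 0.00103) and Ifngr2 (0.53, edgeR adjusted p = 0.0278). The others, Socs1 and Socs3, encode inhibitors of cytokine receptor signalling. Socs3 was at 18.5 to 22.8 CPM in CTR, 17.7 to 21.7 in NE and 371 to 385 in TDE (log2 fold change 4.17, edgeR adjusted p = 1.77e-05), and Socs1 at 2.54 to 3.12, 2.17 to 3.23 and 11.6 to 13.7 CPM. Stat2, a signal transducer of type I interferon, was at 64.9 to 85.5 CPM in CTR, 73.3 to 99.4 in NE and 62.0 to 66.5 in TDE (log2 fold change against CTR -0.23, edgeR adjusted p = 0.310).

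Among 10 DNA-binding partners and cofactors, Id2 rose and Spib fell. Id2, an inhibitor of E proteins used by cDC1 and other lineages, was at 171 to 212 CPM in CTR, 183 to 233 in NE and 318 to 344 in TDE (log2 fold change against CTR 0.81, edgeR adjusted p = 0.00782). Spib, an Ets factor close to PU.1, was at 17.4 to 20.7, 16.5 to 18.6 and 8.83 to 11.0 CPM (log2 fold change -0.99, edgeR adjusted p = 0.00324). Both were called against NE too, and without CTR replicate 1, 4 rose and 1 fell in either TDE comparison. Against CTR, 2 rose and 2 fell without CTR replicate 3, and against NE none rose without NE replicate 1 or 2 or any 1 TDE library.

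Among 23 interferon-stimulated genes with IRF elements, 4 fell and 1 rose against CTR, with a list median of -0.52, and 5 fell and 1 rose against NE. Mx1, an antiviral GTPase, was at 81.0 to 208 CPM in CTR, 143 to 209 in NE and 57.2 to 65.4 in TDE (log2 fold change against CTR -1.36, edgeR adjusted p = 0.0251). Cmpk2, a mitochondrial nucleotide kinase, was at 7.86 to 15.5, 14.9 to 16.2 and 3.92 to 5.35 CPM (log2 fold change -1.41, edgeR adjusted p = 0.00791). Mx2 and Oasl2 also fell, by 0.92 and 0.82 on the log2 scale, and Rtp4 fell against NE by 0.87. Dhx58, a helicase that modulates RNA sensing, was the gene that rose (0.57, edgeR adjusted p = 0.0380). In the fit without CTR replicate 1, 6 fell against CTR and 14 against NE. Against CTR, 6 also fell without CTR replicate 3, 2 fell without TDE replicate 1, and 1 fell without TDE replicate 2 or 3. Against NE, 3 fell without NE replicate 2, TDE replicate 1 or TDE replicate 3. Dhx58 was not called against CTR without CTR replicate 2 or 3, NE replicate 1 or 3, or any 1 TDE library, nor against NE without CTR replicate 2 or any 1 NE or TDE library.

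Of 13 genes linked to Irf1, 4 rose and none fell against CTR. Nos2, the inducible nitric oxide synthase, had 68 reads over the CTR libraries (0.190 to 1.56 CPM) and 20 over the NE libraries, and was at 345 to 374 CPM in TDE (log2 fold change against CTR 8.32, edgeR adjusted p = 0.000334). Cd274, which encodes PD-L1, was at 75.8 to 201 CPM in CTR, 178 to 198 in NE and 501 to 541 in TDE (log2 fold change 1.79, edgeR adjusted p = 0.00782). Tap1, a peptide transporter subunit, and Gbp2, a guanylate-binding protein, were the others (0.72 and 0.80). Gbp2 was not called against NE (edgeR adjusted p = 0.0709), where 3 rose. The count changed when single libraries were left out, as did that over all the lists together. Against CTR, 2 rose without TDE replicate 1, 2 or 3, 3 rose and 1 fell without NE replicate 3, and 5 rose and 1 fell without CTR replicate 1. Against NE, 2 rose without any 1 NE or TDE library, 1 also fell without NE replicate 3, and 5 rose and 1 fell without CTR replicate 1. Irf1 itself overlapped between the groups.

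Of 9 tested genes linked to Irf4, 2 rose and 4 fell against CTR. Kdm6b, a histone H3K27 demethylase, was at 37.5 to 55.5 CPM in CTR, 44.5 to 60.8 in NE and 132 to 145 in TDE (log2 fold change 1.56, edgeR adjusted p = 0.00129), and Pdcd1lg2, which encodes PD-L2, at 58.4 to 106, 65.2 to 94.9 and 154 to 158 CPM (1.0, edgeR adjusted p = 0.0255). Mgl2, a lectin of cDC2 and alternatively activated macrophages, was at 15.6 to 26.1, 16.5 to 18.5 and 0.998 to 1.36 CPM (log2 fold change -4.10, edgeR adjusted p = 6.98e-05). Ccl17, Cd86 and H2-DMb2 fell too, by 2.7, 0.67 and 1.04 on the log2 scale against CTR. The controls differed widely in Ccl17 (3.83 to 31.9 CPM), and neither it nor H2-DMb2 was called against NE (edgeR adjusted p = 0.395 and 0.496), where 2 rose and 2 fell. Against CTR, 1 rose and 1 fell without TDE replicate 1, 2 or 3, 2 rose and 2 fell without NE replicate 1, 2 or 3, 1 rose and 4 fell without CTR replicate 2, and 2 rose and 5 fell without CTR replicate 1. Against NE, 2 rose and 6 fell without CTR replicate 1, and 1 rose and 2 fell without CTR replicate 2 or any 1 NE or TDE library. Irf4 itself lay higher in all TDE libraries.

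Of 11 genes linked to Irf8, 1 rose and 2 fell in either TDE comparison. Ppt1, a lysosomal thioesterase, was at 85.1 to 85.8 CPM in CTR, 86.8 to 91.9 in NE and 160 to 169 in TDE (log2 fold change against CTR 0.95, edgeR adjusted p = 0.000947). Cd24a, a surface marker of cDC1, was at 139 to 172, 151 to 174 and 85.6 to 89.4 CPM (log2 fold change -0.85, edgeR adjusted p = 0.00432). Cadm1, an adhesion molecule of cDC1, had 51 reads in CTR, 66 in NE and 7 in TDE (log2 fold change -2.75, edgeR adjusted p = 0.00886). Against CTR, 2 rose and 4 fell without CTR replicate 3, 3 fell without CTR replicate 1 or TDE replicate 1, and 1 fell without TDE replicate 2. Against NE, 4 fell without CTR replicate 1 and 3 without TDE replicate 1.

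Cytokine genes linked to Irf5 rose in the same libraries in which Irf5 was lower. Of 5 tested, 4 rose against CTR and 5 against NE. Il1b was at 127 to 213 CPM in CTR, 105 to 136 in NE and 875 to 888 in TDE (log2 fold change against CTR 2.46, edgeR adjusted p = 0.000378). Il6 was at 1.20 to 3.43, 2.18 to 3.08 and 10.8 to 12.1 CPM (log2 fold change 2.26, edgeR adjusted p = 0.00422), and Il12b, the shared p40 subunit of IL-12 and IL-23, at 115 to 117, 101 to 106 and 191 to 215 CPM (0.79, edgeR adjusted p = 0.00280). Il12a, the p35 subunit, had 19 reads in CTR, 12 in NE and 625 in TDE. Tnf, called against NE, was at 10.2 to 19.0, 8.84 to 10.4 and 20.4 to 21.4 CPM. With each of the 9 libraries left out in turn, 4 or 5 of the list rose and none fell.

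Genes with a profile like that of Irf5 were sought among 10452 genes of at least 5 CPM, as the root mean square difference of centred log2 CPM over the 9 libraries. The nearest were Akt1 (0.0435), E2f4 (0.0537) and Anxa7 (0.0541). Akt1 was at 237 to 260 CPM in CTR, 246 to 269 in NE and 194 to 196 in TDE. E2f4 was at 50.8 to 53.9, 49.1 to 50.6 and 38.1 to 39.2 CPM, and Anxa7 at 121 to 139, 127 to 146 and 99.0 to 105 CPM. As in Irf5, all 3 TDE libraries of each lay below the other 6, which follows from how these genes were chosen.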

How the data were processed

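RNA of 9 BMDC libraries, 3 each of CTR, NE and TDE as the labels give them, had been sequenced by the authors. The submitters' processing notes name TopHat2 2.1.1, DESeq2 1.24.0 and R 3.3.1, and the counting program, strand setting, genome build and annotation are not given in the sources used here. The authors deposited estimated counts (expected counts) of reads per gene, without normalization, with group means that were not used, gene lengths and Pfam annotation.

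Estimated counts were rounded to whole numbers, filtered with filterByExpr (15028 genes kept), normalized by TMM and fitted with 1 mean per group over all 9 libraries by the quasi-likelihood test of edgeR 4.0.16 in R 4.3.3, with Benjamini-Hochberg adjustment over all genes and a threshold of 0.05. The code was tested on simulated data. CPM are TMM-normalized, and CPM per kb used the deposited gene lengths. The standard error was the log2 fold change divided by the square root of F. The 3-read floor used library totals without TMM factors and covers counting error only. The listed name Mb21d1 was matched to Cgas by its RefSeq synonym. Positions came from GENCODE vM21 and promoters from RefSeq.

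Alternatives were DESeq2 1.42.0, limma 3.58.1 voom with sample quality weights, other scalings and filters, a fit to 6 libraries, a replicate block, and fits without each library in turn. The genes and lists were chosen with earlier results of these data known. In each list the rule named the 2 highest and the 2 lowest called genes of at least 5 CPM, with Ifnb1, Ifng and Stat2; a further item of the rule is not reported here. Other linked genes were named after their values were seen. These were Mavs, Irak2, Ifnar2, Ifngr2, Mx2, Oasl2, Rtp4, Tap1, Gbp2, Cd86, H2-DMb2, Cadm1, Il12a, Il12b and Tnf. The profile neighbours were sought for Irf5, the called gene. Python 3.11.15 with pandas 2.3.3, numpy 2.4.6, scipy 1.17.1 and matplotlib 3.10.9 was used.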

Additional observations from a re-analysis of the deposited data

How the results depend on the processing

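The number of the 8 genes called depended on the setting in both TDE comparisons, where edgeR called 1. Against CTR it was 2 with DESeq2 (which called 20.6% of all genes) and 5 with limma voom (52.5%). It was 0 with library totals alone, with no filter, with only the 6 libraries (7.93%) and with the block (8.55%), and 0 to 3 with a library left out. Against NE it was 2 with DESeq2 (15.1% of all genes), 5 with limma voom (55.3%) and 4 with only the 6 libraries (41.9%). It was 0 with library totals alone, with no filter and with the block (7.82%), and 0 to 4 with a library left out. The cause was not tested. No share of all genes is given for library totals alone, for no filter, or for leaving out a library other than CTR replicate 1. Between NE and CTR it was 0 in all 17 settings. Over the alternatives the adjusted p of Irf5 was 0.000125 to 0.222 against CTR (under 0.05 in 6 of 17) and 4.37e-05 to 0.245 against NE (7 of 17), and that of Irf8 0.00131 to 0.294 (3 of 17) and 0.000164 to 0.447 (4 of 17). Linked genes called were 17 to 67 against CTR and 20 to 80 against NE. Library totals alone moved the median log2 fold change of all genes by 0.12 between NE and CTR.

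Signs turned for values that had not passed the test. With voom, Irf2 was -0.058 and Irf7 0.12 against CTR, Irf3 was 0.017 against NE, and between NE and CTR Irf1 was -0.15, Irf2 -0.0072, Irf4 -0.061, Irf5 -0.030 and Irf7 0.19. DESeq2 gave 0.0039 for Irf2 against NE. Between NE and CTR, median-ratio factors gave -0.012 for Irf5, and Irf8 was 0.12 with library totals alone and 0.028 with no filter. With a library left out, Irf2 ran from -0.055 to 0.47 and Irf7 from -0.39 to 0.12 against CTR, and Irf2 from -0.041 to 0.0070, Irf3 from -0.13 to 0.042 and Irf7 from -0.14 to 0.025 against NE. Between NE and CTR, leaving out a library gave -0.088 to 0.11 for Irf1, -0.027 to 0.49 for Irf2, -0.15 to 0.22 for Irf4, -0.024 to 0.040 for Irf5, -0.36 to 0.16 for Irf7 and -0.056 to 0.023 for Irf8. The Irf4 to Irf8 difference between NE and CTR was 0.13, from -0.17 to 0.31 with a library left out.

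No sign was seen that the replicate numbers pair the samples, although groups of 3 libraries are too few to exclude it. Same-numbered deviations correlated at -0.056 to 0.072 between TDE and CTR, -0.071 to 0.027 between TDE and NE and -0.59 to 0.18 between NE and CTR. The best match had the same number in 3 of 18 cases. With a replicate block 0 of the 8 genes were called in each comparison. Over all genes it called 8.55% for TDE against CTR, 7.82% for TDE against NE and 0% for NE against CTR. The edgeR adjusted p of Irf5 with the block was 0.132 against CTR and 0.145 against NE, and the Irf4 to Irf8 differences were 0.32, 0.18 and 0.13.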
